A study of Mus musculus with 4 samples.

Results

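Glycogen, a branched polymer of glucose, is built and broken down by a small set of enzymes, and 9 genes of this set were followed in the ingWAT of mice, the inguinal white fat under the skin. The genes were taken by symbol from a table of 19030 genes, and all 9 were found and passed the filter on low values. They are *Ugp2*, *Gyg*, *Gys1*, *Gys2*, *Gbe1* and *Ppp1r3c* on the side of synthesis and the phosphorylases *Pygl*, *Pygb* and *Pygm* on the side of breakdown. Samples came from Ctrl and cKO mice. In Ctrl mice exon 2 of *Oct3* (*Slc22a3*, a transporter that clears norepinephrine) is flanked by loxP sites (*Oct3* fl/fl). In cKO mice Adiponectin-Cre deletes the flanked exon. Both groups were 3-month-old C57BL/6 mice kept at 4°C, with 2 libraries of each genotype. The paper describes the cold as prolonged and the mice as male. The Cre acts in adipocytes, so other cells of the depot keep this exon. The number of mice behind each library is not stated, so p-values rest on the spread between these libraries. For each gene that spread is estimated in part from all genes tested.

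Synthesis starts from UDP-glucose, which is made by the product of *Ugp2*, and from glycogenin (*Gyg*), the protein primer of the chain. Glycogen synthase lengthens the chain in a muscle form (*Gys1*), which is widely expressed, or a liver form (*Gys2*), and the branching enzyme (*Gbe1*) adds branch points. Glycogen phosphorylase removes glucose units and is encoded by separate genes for a liver (*Pygl*), a brain (*Pygb*) and a muscle form (*Pygm*). Adrenergic signals activate phosphorylase through protein kinase A and phosphorylase kinase, whereas *Ppp1r3c* encodes a scaffold that brings protein phosphatase 1 to glycogen, where it favours synthesis.

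Expression is given as FPKM, the fragments of a gene scaled by the length of the transcript and the depth of sequencing, so that levels of different genes can be set side by side. FPKM give no depth directly. From the smallest steps among the values of short RNA genes it was estimated as 17400000 to 18150000 reads per library, where 84.5% to 90.8% of those values lay within 0.1 of a whole read. Genotypes were compared on log2(FPKM + 1) with limma over 12658 genes (mean of 1 FPKM or more), and genes are called where the Benjamini-Hochberg (BH) adjusted p is under 0.05. SE is the standard error of a log2 fold change. *Slc22a3* was listed at 17.0 and 17.7 FPKM in Ctrl and at 9.07 and 9.50 FPKM in cKO, a log2 fold change of -0.83 (limma, BH-adjusted p = 0.000439). The source of the *Slc22a3* FPKM left in cKO was not tested. The adipocyte gene *Adipoq* stood at 1527 and 1485 FPKM in Ctrl and at 966 and 1046 FPKM in cKO. It was called lower (limma, BH-adjusted p = 0.00275), as were 3 of 8 white adipocyte genes with it counted, while 5 were not called. The Ctrl libraries also held skeletal muscle transcripts, which touches the muscle isoform and is described with it. In whole tissue, fewer cells of a type and less RNA per cell cannot be told apart.

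The 3 phosphorylase genes, whose levels differed most between genotypes, lie on separate chromosomes of the mm10 (GRCm38) assembly, *Pygl* at chr12:70190815-70227683, *Pygb* at chr2:150786796-150831748 and *Pygm* at chr19:6384408-6398464. The 250 bases before the annotated start of each are shown so that the promoters of these 3 isoforms can be read side by side. They are RefSeq sequences of GRCm38.p6 on the gene's own strand, chr12:70227684-70227933 on the minus strand for *Pygl*, chr2:150786546-150786795 on the plus strand for *Pygb* and chr19:6384158-6384407 on the plus strand for *Pygm*. Capitals mark the E-box CANNTG, which myogenic factors among others bind, and the half-site TGACG of the cAMP response element, each read on either strand.
Pygl: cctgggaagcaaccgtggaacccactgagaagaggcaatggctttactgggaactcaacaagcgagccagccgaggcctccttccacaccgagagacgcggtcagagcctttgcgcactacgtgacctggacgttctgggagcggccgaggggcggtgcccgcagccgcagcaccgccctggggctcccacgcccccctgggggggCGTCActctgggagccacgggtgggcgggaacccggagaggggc
Pygb: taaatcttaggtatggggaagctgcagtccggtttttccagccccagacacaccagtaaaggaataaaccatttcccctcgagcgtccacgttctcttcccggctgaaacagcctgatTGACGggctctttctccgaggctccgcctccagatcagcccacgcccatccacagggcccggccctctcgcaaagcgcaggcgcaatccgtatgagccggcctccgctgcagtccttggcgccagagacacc
Pygm: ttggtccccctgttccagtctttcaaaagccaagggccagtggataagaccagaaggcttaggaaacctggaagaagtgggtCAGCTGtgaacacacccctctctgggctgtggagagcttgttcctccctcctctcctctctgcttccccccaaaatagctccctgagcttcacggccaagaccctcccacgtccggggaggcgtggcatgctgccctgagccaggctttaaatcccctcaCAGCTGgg
The *Pygm* sequence holds 2 E-boxes, both of them CAGCTG, and 0 half-sites. The *Pygl* and *Pygb* sequences hold 1 half-site each and 0 E-boxes. In windows of 300 bases, which run 50 bases past the start, at least 1 E-box is found in 72.3% of the 32851 mouse promoters listed and at least 1 half-site in 20.8%. Of the 8 members with a listed promoter, 6 hold an E-box and 3 a half-site. The 6-base E-box CACGTG, found in 7.15% of promoters, is in those of *Gyg* and *Ppp1r3c*. A site of the MEF2 type, named for another family of muscle transcription factors and found in 3.69% of promoters, is in 0 of the 8, *Pygm* included. Both strands were searched, the CACGTG boxes are also counted as CANNTG, and the one of *Gyg* overlaps its TGACG. These matches are letters in a window and were not tested as binding sites. *Gys2* has no listed promoter.

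Of the 9 genes, *Pygl* and *Gyg* were called higher and *Pygb* and *Pygm* lower in cKO, and the other 5 were not called. Of all genes tested, 25.8% were called, 12% higher and 13.8% lower, and the median log2 fold change was 0.15 for the 9 genes and -0.01 for all genes tested. In 7 of the 9 genes both cKO libraries lay above both Ctrl libraries, where 31.9% of all genes did so. In *Pygb* and *Pygm* both cKO libraries lay below, as in 34.6% of all genes. The groups were thus apart in all 9 genes, as in 66.5% of all genes tested. The 9 genes together made up 0.134% and 0.138% of all FPKM in Ctrl and 0.144% and 0.137% in cKO, a share that overlapped between genotypes. Their summed level did not overlap, at 655 and 666 FPKM in Ctrl and 718 and 682 FPKM in cKO. *Pygm*, which fell, is part of this sum.

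**Figure D1:**
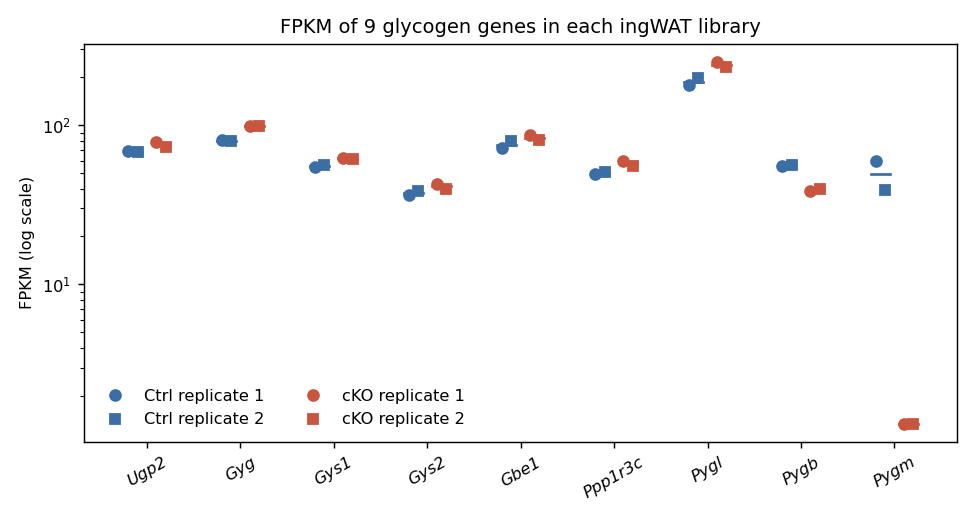
FPKM (log axis) of each of the 9 genes in the 2 Ctrl (blue) and 2 cKO (red) libraries, with circles for replicate 1, squares for replicate 2 and short lines at the group means. *Pygm* stands apart, with 59.4 and 39.2 FPKM in Ctrl and 1.33 FPKM in both cKO libraries, while the group means of the other 8 genes lie between 0.702 (*Pygb*) and 1.28 (*Pygl*) times Ctrl.

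*Pygl*, the liver form of phosphorylase, was the most abundant of the 9 genes in every library. It was listed at 178 and 198 FPKM in Ctrl and at 250 and 232 FPKM in cKO. Both cKO libraries were higher, with a mean of 241 ± 12.4 against 188 ± 14.0 FPKM (SD, n = 2 each), 1.28 times the Ctrl mean. The log2 fold change was 0.36 (limma, SE 0.0739, BH-adjusted p = 0.013). With no filter on low values the call was lost (limma, BH-adjusted p = 0.0703). It was also lost without Ctrl replicate 1 and without cKO replicate 1, in fits that leave 1 library in a group and are less able to call a gene. With a library left out the log2 fold change was from 0.28 to 0.43. At the estimated depth the *Pygl* values stand for 9026 to 12116 reads. The 3 genes whose centred values over the 4 libraries were closest to *Pygl* among the 12658 were *Impdh1*, *Ssfa2* and *Dlat*, at Euclidean distances of 0.017, 0.0227 and 0.0227 on the log2 scale. *Dlat*, a subunit of pyruvate dehydrogenase, went from 116 and 128 FPKM in Ctrl to 163 and 153 FPKM in cKO.

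*Pygb*, the brain form, went the other way from *Pygl*. It was listed at 55.8 and 56.0 FPKM in Ctrl and at 38.5 and 40.0 FPKM in cKO, and the groups did not overlap. The cKO mean of 39.3 ± 1.0 FPKM was below the Ctrl mean of 55.9 ± 0.099 FPKM (SD, n = 2 each), and the log2 fold change was -0.50 (limma, SE 0.0549, BH-adjusted p = 0.0013). This fall was called under all 11 alternatives run for it, with log2 fold changes from -0.53 to -0.47. The Ctrl replicates differed little in *Pygb*, whereas they differed 1.51 times in *Pygm*.

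*Pygm*, the muscle form, is kept apart here because the Ctrl libraries hold muscle transcripts. It was listed at 59.4 and 39.2 FPKM in Ctrl and at 1.33 FPKM in both cKO libraries. The Ctrl libraries differed from each other more than for any other of the 9 genes, and both were far above cKO. The Ctrl mean of 49.3 ± 14.2 FPKM (SD, n = 2) was 37.1 times that of cKO, and the log2 fold change was -4.40 (limma, SE 0.169, BH-adjusted p = 2.59e-05). At the estimated depth these values stand for 3059 and 1982 reads in Ctrl and for 65.7 and 66.2 reads in cKO. Of the 2825 windows of 50 bases (the read length) in the *Pygm* transcript 13 occur in *Pygb* and 0 in *Pygl*, so most of the transcript is distinct. *Pygb* stands for an estimated 2597 and 2716 reads in cKO. How many of the few *Pygm* reads in cKO come from the shared windows was not tested.

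In a list of 15 skeletal muscle genes, 13 passed the filter. All 13 were called lower in cKO as well, beside 13.8% of all genes tested. The summed level of the 15 genes was 2517 and 1692 FPKM in the Ctrl libraries and 12.2 and 9.62 FPKM in the cKO libraries, and none was listed at 0 in any library. *Ckm*, the creatine kinase of muscle, stood at 333 and 210 FPKM in Ctrl and at 0.56 and 0.35 FPKM in cKO. Per 1000 FPKM of the muscle list, *Pygm* came to 23.6 and 23.2 FPKM in the Ctrl libraries, so that the Ctrl libraries differed in *Pygm* by nearly the factor they did in the list. In the cKO libraries the same ratio was 109 and 138, above both Ctrl libraries, so *Pygm* was lower in cKO by a smaller factor than the sum, which the abundant genes dominate. Among the single genes of the list the Ctrl mean was from 3.17 (*Mb*) to 596 (*Ckm*) times that of cKO. For 5 of the 15 this factor was below the 37.1 of *Pygm*, and these were at 3.76 FPKM or less in Ctrl. For every other gene of the list it was 80.1 (*Mylpf*) or more. *Actn3*, with Ctrl values of 61.2 and 40.5 FPKM near those of *Pygm*, had a factor of 268. The exact permutation test of *Pygm* per 1000 FPKM of the list gave p = 0.333, two-sided, the smallest that 2 libraries against 2 allow. The part of muscle tissue in the fall of *Pygm* was not tested. The 3 genes closest to *Pygm* in their centred values were *Casq1*, *Mybpc2* and *Tcap*, at distances of 0.137, 0.237 and 0.275, all of them genes of striated muscle.

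**Figure D2:**
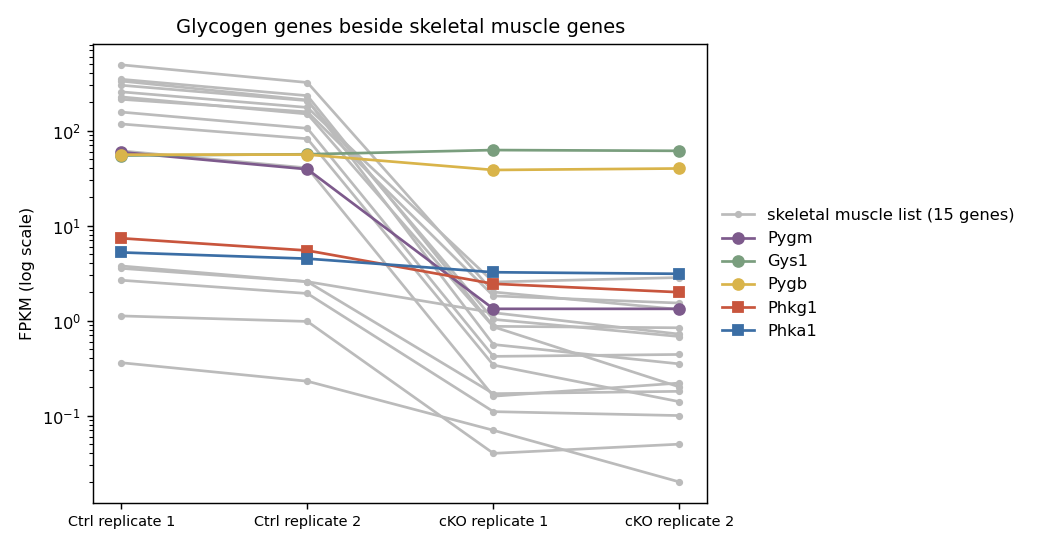
FPKM (log axis) in each of the 4 libraries of the 15 genes of the skeletal muscle list (grey) and of *Pygm*, *Gys1*, *Pygb*, *Phkg1* and *Phka1* (colours), with lines that join the values of 1 gene and imply no order of the libraries. *Pygm* and the grey genes drop from Ctrl to cKO, *Phkg1* and *Phka1* drop less, and *Gys1* is at 54.7 to 62.5 FPKM throughout.

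The summed level of the 3 phosphorylases and its composition depended on *Pygm*. The sum was 293.5 and 293.3 FPKM in Ctrl and 289.5 and 273.5 FPKM in cKO, a cKO mean 0.959 times that of Ctrl. Without *Pygm* it was 234 and 254 FPKM in Ctrl and 288 and 272 FPKM in cKO, 1.15 times, and both cKO libraries were higher. *Pygl* made up 60.7% and 67.5% of the sum in Ctrl and 86.2% and 84.9% in cKO. *Pygb* made up 19.0% and 19.1% in Ctrl and 13.3% and 14.6% in cKO, and *Pygm* 20.2% and 13.4% in Ctrl and 0.459% and 0.486% in cKO. For each of the 3 shares the groups did not overlap, and the exact permutation test gave p = 0.333, two-sided, below which 2 against 2 cannot go. The shift of *Pygl* by 21.4 percentage points includes the fall of *Pygm*, and with *Pygm* left out of the sum, an alternative chosen after seeing the data, the share of *Pygl* was 76.2% and 78.0% in Ctrl and 86.6% and 85.3% in cKO, 8.91 points higher. The ratio of *Pygl* to *Pygb* was 3.19 and 3.54 in Ctrl and 6.48 and 5.81 in cKO.

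**Figure D3:**
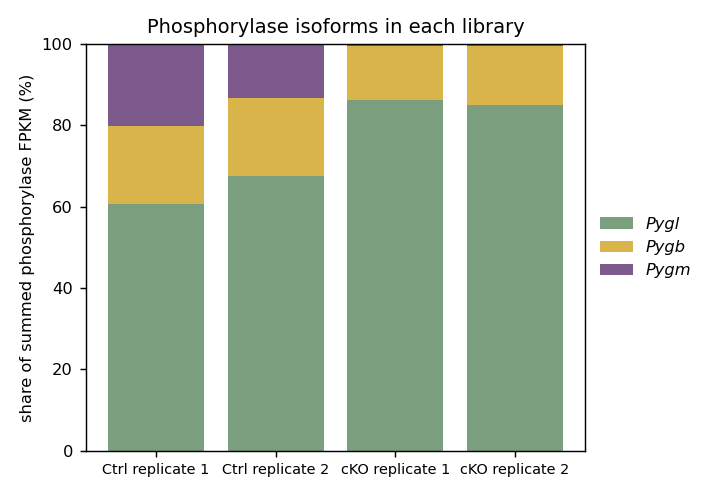
Share of *Pygl*, *Pygb* and *Pygm* in their summed FPKM (percent, stacked bars) in each of the 4 libraries. *Pygl* takes 60.7% and 67.5% in Ctrl and 86.2% and 84.9% in cKO, and the band of *Pygm* is too thin to see in cKO.

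On the side of synthesis, *Gyg* was the 1 gene called. It was listed at 80.3 and 80.2 FPKM in Ctrl and at 98.5 and 98.6 FPKM in cKO, with replicates that nearly coincide. It rose 1.23 times, a log2 fold change of 0.29 (limma, SE 0.0527, BH-adjusted p = 0.00761). The call was lost without Ctrl replicate 1 and without Ctrl replicate 2, in fits that leave 1 Ctrl library, with log2 fold changes of 0.29 in both. The cKO libraries were also higher for the other genes of synthesis, but by less, and none of these passed.

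*Ppp1r3c*, the phosphatase scaffold, came closest to the threshold. It was listed at 49.3 and 51.0 FPKM in Ctrl and at 59.9 and 55.2 FPKM in cKO, a log2 fold change of 0.19 with a 95% interval from 0.05 to 0.34 (limma, BH-adjusted p = 0.0611). With the filter set at 5 FPKM its adjusted p was 0.0421. *Ugp2*, which supplies UDP-glucose, was listed at 68.7 and 67.5 FPKM in Ctrl and at 78.6 and 73.0 FPKM in cKO, with an interval of the log2 fold change from 0.01 to 0.29 (limma, BH-adjusted p = 0.109). *Gbe1*, the branching enzyme, was listed at 72.2 and 79.1 FPKM in Ctrl and at 86.8 and 80.5 FPKM in cKO, with an interval from -0.02 to 0.31 (limma, BH-adjusted p = 0.177). The second library of each genotype lay close to that of the other.

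The 2 glycogen synthases stood in a similar proportion in all 4 libraries. *Gys1* was listed at 54.7 and 56.4 FPKM in Ctrl and at 62.5 and 61.3 FPKM in cKO, a log2 fold change of 0.15 with an interval from 0.02 to 0.28 (limma, BH-adjusted p = 0.0813). *Gys2* was listed at 36.4 and 38.7 FPKM in Ctrl and at 42.7 and 39.9 FPKM in cKO, a log2 fold change of 0.13 with an interval from -0.02 to 0.28 (limma, BH-adjusted p = 0.17). The liver form thus had a level of the same order as the muscle form, with 40.0% and 40.7% of the summed synthase FPKM in Ctrl and 40.6% and 39.4% in cKO (exact permutation test, p = 0.667, two-sided), groups that overlap. Of the muscle forms, *Pygm* was lower in cKO with the muscle list, whereas both cKO values of *Gys1* were above those of Ctrl. Of 8 hepatocyte markers 6 had values. *Ttr* was listed at 0.09 FPKM or less, *Tat* at 0.02 FPKM or less and *Apoa1* at 0.45 FPKM or less in every library. *Alb* was at 24.4 FPKM in both Ctrl libraries and at 11.5 and 14.9 FPKM in cKO. *Apoa2* went the other way, with 0.81 and 1.26 FPKM in Ctrl and 1.95 and 1.53 FPKM in cKO, and was not called. *Serpina1a* was at 1.51 to 1.85 FPKM in the 4 libraries.

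The order of levels by group mean in Ctrl was *Pygl*, *Gyg*, *Gbe1*, *Ugp2*, *Pygb*, *Gys1*, *Ppp1r3c*, *Pygm* and *Gys2*. Neighbours whose library values interleave or touch in Ctrl were *Pygb* with *Gys1* and *Ppp1r3c* with *Pygm*, and *Gyg* and *Gbe1* differed by less than the range of *Gbe1*. In cKO the order was *Pygl*, *Gyg*, *Gbe1*, *Ugp2*, *Gys1*, *Ppp1r3c*, *Gys2*, *Pygb* and *Pygm*, in which *Gys2* and *Pygb* overlapped. *Pygl* plus *Pygb* was 2.57 and 2.67 times the summed synthases in Ctrl and 2.74 and 2.69 times in cKO, and with *Pygm* included the ratio was 3.22 and 3.08 in Ctrl and 2.75 and 2.70 in cKO.

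A further 23 genes for other steps of glycogen metabolism were all in the table, and 21 passed the filter. Of these, 3 were called higher, 2 lower and 16 were not called, beside 25.8% called of all genes, and their median log2 fold change was -0.02. The genes called lower encode the muscle subunits of phosphorylase kinase. *Phkg1*, the catalytic subunit of muscle, was listed at 7.36 and 5.47 FPKM in Ctrl and at 2.44 and 1.99 FPKM in cKO, a log2 fold change of -1.20 (limma, SE 0.14, BH-adjusted p = 0.00152). *Phka1*, the muscle form of the regulatory alpha subunit, was listed at 5.22 and 4.49 FPKM in Ctrl and at 3.23 and 3.11 FPKM in cKO, a log2 fold change of -0.49 (limma, BH-adjusted p = 0.0108). Both were higher in the Ctrl libraries, in which the muscle list summed to 2517 and 1692 FPKM, and the part of muscle tissue was not tested. The call of *Phka1* was lost with no filter on low values (limma, BH-adjusted p = 0.0609). It was also lost without Ctrl replicate 1 (log2 fold change -0.40) and without cKO replicate 2 (log2 fold change -0.47). Of the other subunits, the liver form *Phka2* was at 14.4 to 14.98 FPKM and the liver form *Phkg2* at 12.6 to 14.1 FPKM in the 4 libraries, and the shared subunit *Phkb* at 18.4 to 19.2 FPKM, none of which was called. *Ppp1r3a*, the glycogen-targeting subunit of protein phosphatase 1 in muscle, was under the filter, with 1.34 and 0.9 FPKM in Ctrl and 0.02 and 0.06 FPKM in cKO. It came to 0.532 per 1000 FPKM of the muscle list in both Ctrl libraries and to 1.64 and 6.24 in cKO, from its 0.02 and 0.06 FPKM. The same ratio of *Phkg1* was 2.92 and 3.23 in Ctrl and 200 and 207 in cKO. That of *Phka1* was 2.07 and 2.65 in Ctrl and 265 and 323 in cKO, so these genes were lower in cKO by smaller factors than the summed list.

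The 3 genes called higher, of 21 tested, were *Ppp1r3d*, *Ppp1cb* and *Gsk3a*, beside 12% called higher of all genes. Genes with like roles were not called, among them *Gsk3b*, *Ppp1r3b*, *Ppp1r3e*, *Ppp1ca* and *Ppp1cc*. *Gsk3b* was at 9.63 and 9.62 FPKM in Ctrl and at 8.52 and 9.17 FPKM in cKO. *Ppp1r3b* was at 96.4 and 99.8 FPKM in Ctrl and at 108 and 99.2 FPKM in cKO. *Ppp1r3d*, another glycogen-targeting subunit, was listed at 8.88 and 9 FPKM in Ctrl and at 11.2 and 11.9 FPKM in cKO, a log2 fold change of 0.34 (limma, SE 0.0679, BH-adjusted p = 0.0116). *Ppp1cb*, a catalytic subunit of protein phosphatase 1, was listed at 48.1 and 53.7 FPKM in Ctrl and at 63.5 and 62.0 FPKM in cKO, a log2 fold change of 0.30 (limma, BH-adjusted p = 0.0184). *Gsk3a*, a kinase that phosphorylates and inactivates glycogen synthase, was listed at 53.2 and 51.3 FPKM in Ctrl and at 62.6 and 61.8 FPKM in cKO, a log2 fold change of 0.25 (limma, BH-adjusted p = 0.0166). Each of these 3 calls was lost in fits with a library left out, which leave 1 library in a group and are less able to call a gene. The *Gsk3a* call was lost without any 1 of the 4 libraries, with log2 fold changes from 0.22 to 0.27. *Ppp1r3d* missed the threshold without Ctrl replicate 1, Ctrl replicate 2 or cKO replicate 2. Its log2 fold change was from 0.30 to 0.37 with a library left out. *Ppp1cb* missed the threshold without Ctrl replicate 1, cKO replicate 1 or cKO replicate 2, and its log2 fold change was from 0.22 to 0.38. With no filter on low values the *Ppp1cb* call was lost too (limma, BH-adjusted p = 0.0742). The most abundant phosphoglucomutase, Entrez gene 72157, which the table calls *Pgm2* and RefSeq now calls *Pgm1*, was listed at 159 and 152 FPKM in Ctrl and at 147.2 and 146.8 FPKM in cKO and was not called (limma, BH-adjusted p = 0.34).

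**Figure D4:**
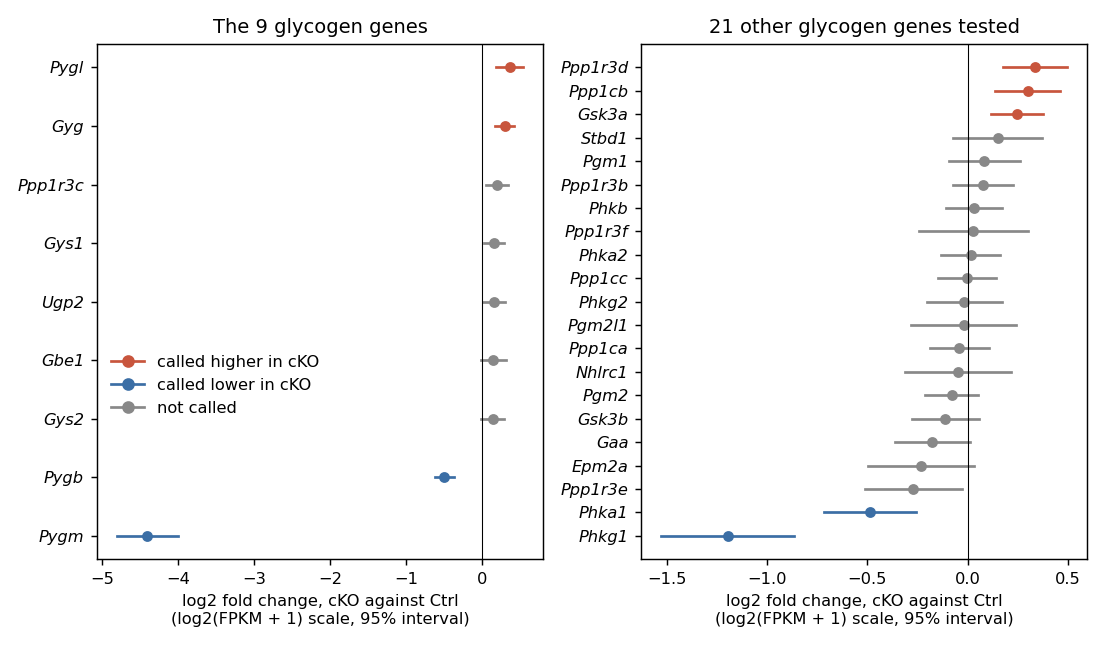
Difference in log2(FPKM + 1), cKO minus Ctrl (points), with its 95% interval (lines) for the 9 glycogen genes (left) and the 21 other glycogen genes tested (right), red where called higher, blue where called lower and grey where not called. *Pygl* at 0.36 and *Pygm* at -4.40 mark the ends on the left, *Ppp1r3d* at 0.34 and *Phkg1* at -1.20 those on the right, and the horizontal scales differ.

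Marker genes of other cells were compared as well, and their counts stand beside 25.8% called of all genes tested, 12% higher and 13.8% lower. All 8 brown and beige adipocyte genes were called higher, with summed levels of 1555 and 1845 FPKM in Ctrl and 4909 and 4153 FPKM in cKO. Of 8 white adipocyte genes 3 were called lower. All 4 neutrophil genes tested of 8 were called higher, with sums of 13.5 and 13.6 FPKM in Ctrl and 29.5 and 29.9 FPKM in cKO. All 5 B cell genes and 5 of 6 T cell genes were called higher, with B cell sums of 202 and 227 FPKM in Ctrl and 322 and 364 FPKM in cKO and T cell sums of 81.7 and 85.7 FPKM in Ctrl and 113 and 150 FPKM in cKO. Of 7 macrophage genes 1 was called higher and 3 lower, and of 5 endothelial genes 2 and of 5 fibroblast progenitor genes 4 were called lower. Of the hepatocyte list 3 genes were tested and 1 (*Alb*) was called lower, and the keratinocyte and epithelial list, with 0 genes tested, summed to at most 0.9 FPKM. The part of these cells in the changes of *Pygl*, *Gyg* and *Pygb* was not tested.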

How the data were processed

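RNA from 2 Ctrl and 2 cKO ingWAT samples was sequenced by the authors after selection of polyadenylated RNA, with single-end reads of 50 bases on a BGISEQ-500. The authors deposited FPKM values per gene and library, to the hundredth. The submitters' processing notes name HISAT2 2.0.4, RSEM 1.2.12 and mm10, and no scaling between libraries is stated. All per-sample columns were used.

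The 9 genes, the 23 further glycogen genes and the 11 marker lists were chosen with earlier results of these data known. All 9 genes are named. Beside these, 1 gene of the pathway is not reported here. Of the further genes, the 5 called were named by rule. So were the 3 genes closest (Euclidean distance of centred log2 values) to the member that rose most and to the one that fell most. *Ppp1r3a*, the 3 other phosphorylase kinase subunits, *Gsk3b*, *Ppp1r3b*, *Ppp1r3e*, *Ppp1ca*, *Ppp1cc* and the phosphoglucomutase were named after their values were seen.

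The filter kept genes whose mean over the 4 libraries was 1 FPKM or more. Genotypes were compared on log2(FPKM + 1), which understates the change of low genes, with limma 3.58.1 in R 4.3.3 (eBayes with a trend, two-sided, Benjamini-Hochberg adjustment over 12658 genes). The procedure was tested on simulated data. Reads of the main glycogen genes were estimated from FPKM, transcript length and the estimated depth. For other longer genes read counts were not derived, and no count test was used. Depth was estimated from 319 genes of at most 400 bases, up to 6 reads, with 36 bases taken off each length. Transcript lengths and 50-base windows came from GENCODE M21, gene positions and promoters from RefSeq for GRCm38.p6 (18977 of 19030 gene IDs matched). Python 3.11.15 was used for the other steps. Alternatives were each library left out, the replicate number as a block, eBayes with no trend, quantile or median-of-ratios scaling, a pseudocount of 0.1, and either no filter or one of 5 FPKM.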

Additional observations from a re-analysis of the deposited data

How the results depend on the processing

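With no filter on low values 1762 genes were called in place of 3269. With each library left out in turn the count was between 787 (without Ctrl replicate 1) and 2340 (without cKO replicate 2). Such fits leave 1 library in a group and are less able to call a gene. The lower counts therefore cannot show how far single libraries set the number called over all genes. Of the 9 glycogen genes 4 were called, and between 2 and 4 with a library left out. The 2 left without Ctrl replicate 1 were *Pygb* and *Pygm*. Of the 23 further genes 5 were called, 3 of them with a mean FPKM of at least 5, where 13 genes were tested, and between 1 and 3 with a library left out. The share of *Pygl* in the summed phosphorylases was 21.4 percentage points higher in cKO, from 18.0 to 24.8 points with a library left out and 8.91 points with *Pygm* left out of the sum. The share of *Gys2* in the summed synthases differed by -0.31 points (cKO minus Ctrl), from -0.91 to 0.29 points with a library left out, and its sign turned without Ctrl replicate 2 (0.04) and without cKO replicate 2 (0.29). *Pygm* per 1000 FPKM of the muscle list was 100.2 higher in cKO, from 85.5 to 114.9 with a library left out. For the cases that changed, the cause was not tested.

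With the replicate number as a block 3383 genes were called in all, 4 of the 9 and 5 of the 23. The correlation of the deviations of same-numbered libraries from their group means was 0.0148 over genes. A single value over all genes cannot show whether the numbers pair the libraries. Of 152 log2 fold changes of the 9 genes and of the 5 further genes called under the alternatives, 132 kept their side of the threshold, 19 lost it, 1 (*Ppp1r3c*) gained it and 0 changed sign. The depth leaves 65.7 estimated reads for the lowest value of the 9 genes (*Pygm* in cKO) and 1733 or more for those of the other 8, and with 2 libraries of each genotype intervals of small changes are wide.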
